A study of Homo sapiens with 4 samples.

Results

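The ligands and receptors of the tumor necrosis factor (TNF) superfamily were followed in PC3 cells, an established line of human prostatic adenocarcinoma, after MLN4924, after depletion of p14ARF, and after both. Members were the genes of the expression table with a symbol that starts with TNFSF or TNFRSF, plus TNF, LTA, LTB, FAS, FASLG, CD27, CD40, CD70, LTBR, NGFR, EDAR and EDA2R. This rule took 47 of 43622 genes. Levels are given in TPM, which scales transcripts to gene length and to the same total in every library. At an average of 0.1 TPM or more over the 12 libraries, 33 members were tested: 12 of 16 ligands, 6 of 8 receptors with a death domain, 3 of 4 decoy receptors, 11 of 16 other receptors, and the read-through gene TNFSF12-TNFSF13. The other 14 members were below that level and are only listed: the ligands LTA, LTB, TNFSF8 and TNFSF11, the receptors NGFR, EDAR, EDA2R, CD27, TNFRSF4, TNFRSF13B and TNFRSF17, the decoy receptor TNFRSF10D, and the antisense RNAs TNFRSF14-AS1 and TNFRSF10A-AS1. The highest value of any of these 14 in any library was 0.424 TPM (TNFRSF4), and CD27 and TNFRSF10A-AS1 were at 0 in all 12 libraries.

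RNA-seq was performed on 4 conditions with 3 libraries each. Ctrl was PC3 cells with the vehicle DMSO, MLN was PC3 cells with 1 µM MLN4924, shARF was p14ARF-depleted PC3 cells (PC3-shp14ARF) with DMSO, and Both was PC3-shp14ARF cells with 1 µM MLN4924, all for 3 days. The dose is that of the sample labels, while the design text of the series gives it in mM. MLN4924 inhibits the enzyme that activates NEDD8, a ubiquitin-like protein that cullin-RING ubiquitin ligases need for their activity. PC3-shp14ARF cells carried a short hairpin RNA against p14ARF from a retrovirus and were selected with Hygromycin B, and the sources used here name no control hairpin for the PC3 cells, so depletion, infection and selection cannot be told apart. The sources do not say whether the 3 libraries of a condition came from separate cultures, so p-values measure only the spread between these libraries, which may be technical. Library numbers were 1, 2 and 3 in Ctrl, 1, 2 and 5 in MLN, 1, 3 and 5 in shARF and 2, 3 and 4 in Both, and values of single libraries are given in that order.

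Ligands of this superfamily are made mostly as membrane proteins of 3 joined subunits, and some are released by proteases such as ADAM17. Many receptors with a death domain recruit the adaptors TRADD or FADD, which can lead to caspases. Most of the other receptors recruit TRAF proteins that lead to NF-kappaB and MAP kinases. Decoy receptors bind a ligand without passing on a full signal. In epithelial tumor cells such as PC3 the superfamily is best known for apoptosis by TRAIL and FAS ligand and for inflammatory signalling by TNF, while many of its other members are known from lymphocytes.

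For the start sites of 30 of the 47 members a promoter was at hand in RefSeq (GRCh38.p14), and the 250 bases before the start are shown for 4 ligands on which the results turn: TNFSF18 and TNFSF9, the ligands that MLN4924 raised most by TPM, TNFSF15, which moved in opposite directions in the 2 lines, and TNF. Capitals mark a match to the AP-1 motif TGANTCA on either strand, and in these 4 windows there was no match to the NF-kappaB motif (3 G, 2 of any base, 2 T, any base and 2 C).
TNFSF18 (chr1:173050942-173051191, minus strand): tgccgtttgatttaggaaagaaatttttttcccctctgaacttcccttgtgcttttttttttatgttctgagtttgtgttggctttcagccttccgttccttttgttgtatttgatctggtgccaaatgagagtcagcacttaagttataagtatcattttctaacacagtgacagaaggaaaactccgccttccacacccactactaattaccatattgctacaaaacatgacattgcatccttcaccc
TNFSF9 (chr19:6530776-6531025, plus strand): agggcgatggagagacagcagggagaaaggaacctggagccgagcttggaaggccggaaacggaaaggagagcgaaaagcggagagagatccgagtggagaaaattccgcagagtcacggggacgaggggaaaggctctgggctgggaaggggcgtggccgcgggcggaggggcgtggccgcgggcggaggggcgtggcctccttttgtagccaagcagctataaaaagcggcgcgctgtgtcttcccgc
TNFSF15 (chr9:114792531-114792780, minus strand): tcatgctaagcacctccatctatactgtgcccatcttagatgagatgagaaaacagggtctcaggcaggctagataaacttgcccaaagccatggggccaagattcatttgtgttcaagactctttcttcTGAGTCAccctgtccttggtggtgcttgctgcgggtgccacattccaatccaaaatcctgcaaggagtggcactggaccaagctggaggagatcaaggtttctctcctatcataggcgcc
TNF (chr6:31575315-31575564, plus strand): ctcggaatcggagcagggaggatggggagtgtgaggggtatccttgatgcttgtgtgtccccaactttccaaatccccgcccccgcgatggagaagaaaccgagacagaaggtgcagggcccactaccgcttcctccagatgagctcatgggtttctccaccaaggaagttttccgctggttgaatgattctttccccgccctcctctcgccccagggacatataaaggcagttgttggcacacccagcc
The match in TNFSF15, TGAGTCA, begins 120 bases before the RefSeq start. In TNFRSF9, the receptor of TNFSF9, the NF-kappaB motif matched with GGGAATTTCC 74 bases before the start and the AP-1 motif with TGAGTCA 44 bases before it. Among members with a promoter at hand, 7 of 30 had an NF-kappaB match in at least 1 window (CD27, FAS, LTA, LTB, TNFRSF13B, TNFRSF9 and TNFSF13) and 6 of 30 an AP-1 match (CD27, EDA2R, FAS, TNFRSF9, TNFSF14 and TNFSF15). Counted by window, since some genes have several starts, 20.0% of the 40 member windows and 5.07% of all 35116 promoters of the same length held the NF-kappaB motif, and 17.5% and 6.57% held the AP-1 motif. In LTB and in TNFSF14 overlapping windows shared a match that was counted for each window. Of the genes with an NF-kappaB match, CD27, LTA, LTB and TNFRSF13B averaged below 0.1 TPM and were not tested. The same holds for CD27 and EDA2R among those with an AP-1 match. The 2 motifs do not share a match in TNFRSF9. A match is a description of these letters and not of binding, and the absence of a match in TNF or TNFSF18 concerns only these windows.

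The tissue label was checked against marker lists, and the libraries against each other. Epithelial genes (EPCAM, KRT8, KRT18, KRT19 and CDH1) summed to 907 to 1280 TPM with DMSO and to 433 to 504 with MLN4924, and KLK3, a marker of luminal prostate cells, was at 0 in all libraries. Among 6 leukocyte markers PTPRC was at most 0.322 TPM, CD3E 0.0558, ITGAM 0.107, CD14 0.797 and CD79A 2.31. CD68, a lysosomal protein also made outside leukocytes, carried nearly all of their sum. That sum was 162 to 231 TPM in Ctrl and 439.6 to 609 in MLN, and 74.5 to 95.1 in shARF and 306 to 346 in Both. It rose with MLN4924 and was lower after depletion, with no overlap. The epithelial sum fell with the drug, and with DMSO it was higher in shARF (1138 to 1280 TPM) than in Ctrl (907 to 1004). The part of either sum in the changes of superfamily genes was not tested. Mitochondrial transcripts took 7.85% to 10.9% of TPM in Ctrl and 8.43% to 12.9% in MLN, and 6.04% to 8.03% in shARF and 10.2% to 13.2% in Both. The most abundant gene took 1.44% to 2.37% with DMSO and 2.64% to 3.78% with MLN4924, and 19889 to 20100 genes were above 0 with DMSO and 20604 to 21455 with MLN4924. These shares and numbers also moved with MLN4924, though the mitochondrial shares of Ctrl and MLN overlapped. With DMSO the share of the most abundant gene was also lower in shARF (1.44% to 1.53%) than in Ctrl (2.11% to 2.37%). With MLN4924 fewer genes were above 0 in Both (20604 to 20747) than in MLN (21127 to 21455). The part of these measures in the results was not tested. Of the endothelial markers, PECAM1 was at 11.7 ± 0.770 TPM in Ctrl and at most 1.94 in every other library, while CDH5 and VWF did not pass 0.327. Fibroblast markers summed to 53.1 to 64.0 TPM in shARF and to 10.1 to 22.0 in the other libraries, mostly from COL1A1 and COL1A2. CDKN2A, the gene of p14ARF, was at 183 ± 6.49 TPM in Ctrl and 118 ± 16.4 in MLN, and at 59.3 ± 1.47 in shARF and 47.5 ± 6.40 in Both (SD, n = 3). CDKN2A was lower in shARF than in Ctrl (log2 −1.63 ± 0.04, adjusted p = 2.24e-05) and in Both than in MLN (log2 −1.31 ± 0.14, adjusted p = 0.00188). These levels are those of the whole gene, so the level of the p14ARF transcript alone is not known. TPM holds no depth, so no counting interval can be given for any value here. In bulk RNA a lower level in each cell and fewer cells that express a gene cannot be told apart.

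Tests were made with limma on log2(TPM + 0.1), over all 19932 genes that averaged 0.1 TPM or more. Calls were made at an adjusted p below 0.05 (Benjamini-Hochberg over all genes tested), and "beyond 2-fold" adds an absolute log2 fold change above 1. Fold changes are given as log2 ± standard error, and they understate the change of genes near the pseudocount of 0.1 TPM. MLN vs Ctrl and Both vs shARF give the response to MLN4924 in PC3 and in PC3-shp14ARF cells. PC3-shp14ARF and PC3 cells are compared with DMSO in shARF vs Ctrl and with MLN4924 in Both vs MLN. Where the text speaks of depletion or its effect, it means this difference between the lines, which also holds infection and selection. The interaction is the response in PC3-shp14ARF cells minus that in PC3 cells.

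With MLN4924, 15 members were higher and 9 lower in PC3 cells, against 32.2% of all genes higher and 29.4% lower. Beyond 2-fold, 11 were higher and 6 lower, against 15.6% and 12.4% of all genes. In PC3-shp14ARF cells 14 were higher and 10 lower, against 28.3% and 32.8% of all genes, and beyond 2-fold 9 were higher and 9 lower, against 13.0% and 13.4%. The ligands were called higher in 7 of 12 and lower in 3 of 12 in each line. The median log2 fold change of the 33 members was 0.62 in PC3 cells, where that of all genes was 0.05. In PC3-shp14ARF cells it was 0.00, where that of all genes was −0.04. TNFRSF6B was not detected in PC3-shp14ARF cells, and without it the medians of the members were 0.68 and 0.11. Both lines shared a call in 17 members: CD40, FAS, FASLG, TNF, TNFRSF10A, TNFRSF12A, TNFRSF9, TNFSF13, TNFSF18 and TNFSF9 were higher, and TNFRSF10C, TNFRSF11A, TNFRSF14, TNFRSF19, TNFRSF21, TNFSF12 and TNFSF4 were lower. Of all genes, 22.0% were called higher in both lines and 22.8% lower in both. TNFSF15 was called in both lines in opposite directions.

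The differences between the lines, called depletion here, went mostly one way. With DMSO 18 members were lower and 2 higher in shARF than in Ctrl, against 20.4% and 21.0% of all genes, and beyond 2-fold 12 were lower and 2 higher, against 6.60% and 3.87%. With MLN4924 17 members were lower and 0 higher in Both than in MLN, against 20.6% and 11.8% of all genes, and beyond 2-fold 9 were lower and 0 higher, against 6.84% and 2.18%. After scaling by median-of-ratios factors, which raised the median of all genes in Both vs MLN by log2 0.08, 16 members were lower and 0 higher, against 17.4% and 18.4% of all genes. At an unadjusted p below 0.05, 0 members were higher in Both than in MLN by limma, and the count at the adjusted p was 0 under every alternative run. The median log2 fold change of the members was −0.44 with DMSO and −0.55 with MLN4924, where that of all genes was 0.00 and −0.08. In both comparisons 11 members were lower: the ligands CD70, FASLG, TNF, TNFSF12, TNFSF13 and TNFSF9, the death-domain receptors TNFRSF10A and TNFRSF10B, the decoy receptor TNFRSF11B, and TNFRSF19 and TNFRSF9. Of all genes, 9.53% were called lower in both. Of 12 ligands, 8 were lower with DMSO and 9 with MLN4924, and 0 were higher in either. At an unadjusted p below 0.05 in limma, 1 ligand was higher with DMSO and 0 with MLN4924. Without Ctrl replicate 1, without Ctrl replicate 2 or without shARF replicate 1, 4 members rather than 2 were higher in shARF than in Ctrl.

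**Figure D1:**
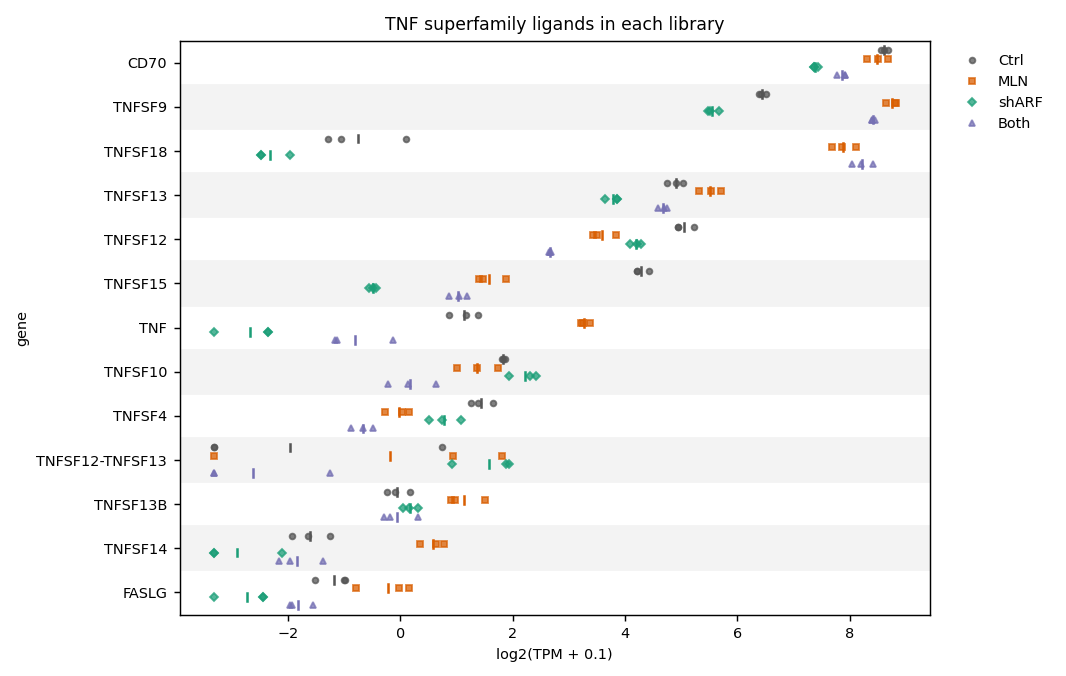
Level of each tested ligand and of the read-through gene TNFSF12-TNFSF13 in every library, as log2(TPM + 0.1) on the x axis, with the genes on the y axis. Points are libraries (n = 3 in each of Ctrl, MLN, shARF and Both) and short vertical bars are group means. TNFSF18 lies toward the left in Ctrl and shARF and toward the right in MLN and Both, while CD70 is lower in shARF and Both.

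The ligands known as costimulators of lymphocytes ranged from TNFSF18, TNFSF9 and CD70, which made up most of the summed ligand level, to the low TNFSF4 and TNFSF14. TNFSF18 was at 0.311, 0.968 and 0.378 TPM in Ctrl and at 276, 206 and 232 in MLN, and at 0.0784, 0.155 and 0.0790 in shARF and at 295, 342 and 263 in Both. TNFSF18, the ligand of the receptor GITR (TNFRSF18), was thus under 1 TPM in every DMSO library and at 206 TPM or more in every MLN4924 library, with no overlap. The ratio of the mean TPM was 431 in PC3 and 2882 in PC3-shp14ARF cells, over denominators so low that the ratios are uncertain. Its response was log2 8.64 ± 0.37 in PC3 cells (adjusted p = 1.36e-05) and log2 10.53 ± 0.18 in PC3-shp14ARF cells (adjusted p = 9.39e-07). The response was larger in PC3-shp14ARF cells (interaction log2 1.90 ± 0.41, adjusted p = 0.00463). With DMSO it was lower after depletion, at under 1 TPM in either line, and with MLN4924 the difference between the lines was not called (log2 −1.56 ± 0.42 with DMSO, adjusted p = 0.0333, and log2 0.34 ± 0.14 with MLN4924, adjusted p = 0.122). TNFSF18 was no longer called in shARF vs Ctrl without any 1 of Ctrl replicate 3 and shARF replicates 1, 3 and 5 (adjusted p = 0.0609 to 0.101) or with no filter on low values or with a pseudocount of 1 (adjusted p = 0.0722 to 0.285).

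TNFSF9 was at 90.7, 83.6 and 86.0 TPM in Ctrl and at 400.1, 451 and 449.9 in MLN, and at 44.5, 45.5 and 51.0 in shARF and at 352, 339 and 338 in Both. TNFSF9, the ligand of TNFRSF9, was lowest in shARF and highest in MLN, and no 2 groups overlapped. With MLN4924 it rose by log2 2.32 ± 0.07 in PC3 cells (adjusted p = 4.62e-06) and log2 2.87 ± 0.06 in PC3-shp14ARF cells (adjusted p = 1.52e-06). Depletion changed it by log2 −0.88 ± 0.06 with DMSO (adjusted p = 0.000497) and log2 −0.34 ± 0.07 with MLN4924 (adjusted p = 0.0144), and its response to MLN4924 was larger in the depleted line (interaction log2 0.55 ± 0.09, adjusted p = 0.0011). TNFSF9 was no longer called in Both vs MLN without MLN replicate 2 (adjusted p = 0.058) or with no filter on low values (adjusted p = 0.0516). CD70 was at 408, 377 and 389 TPM in Ctrl and at 315, 409.8 and 362 in MLN, and at 164, 165 and 173 in shARF and at 240.3, 218 and 240.1 in Both. CD70, the ligand of CD27, overlapped between Ctrl and MLN, and was lower in every library of shARF and Both than in any library of PC3 cells. The response to MLN4924 was log2 −0.12 ± 0.10 in PC3 cells (adjusted p = 0.352) and log2 0.48 ± 0.05 in PC3-shp14ARF cells (adjusted p = 0.000438), so that it was called only in PC3-shp14ARF cells. For CD70 the interaction was called (log2 0.60 ± 0.12, adjusted p = 0.00288). Depletion changed CD70 by log2 −1.23 ± 0.04 with DMSO (adjusted p = 6.46e-05) and log2 −0.63 ± 0.11 with MLN4924 (adjusted p = 0.00802). 

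TNFSF4 was at 3.05, 2.28 and 2.50 TPM in Ctrl and at 1.01, 0.915 and 0.727 in MLN, and at 1.32, 2.01 and 1.57 in shARF and at 0.532, 0.616 and 0.445 in Both. TNFSF4 is a costimulator of T cells that binds TNFRSF4, and each of its MLN4924 libraries was lower than each DMSO library of the same line. It fell with MLN4924 (log2 −1.46 ± 0.19 in PC3 cells, adjusted p = 0.000856, and log2 −1.45 ± 0.22 in PC3-shp14ARF cells, adjusted p = 0.00169). For TNFSF4 the interaction was not called (log2 0.02 ± 0.30, adjusted p = 0.979). The depletion changes, log2 −0.66 ± 0.20 with DMSO (adjusted p = 0.0508) and log2 −0.64 ± 0.21 with MLN4924 (adjusted p = 0.0616), were not called. TNFSF4 was called in Both vs MLN with all 12 libraries in 1 fit or with a pseudocount of 1 (adjusted p = 0.0302 to 0.0495). TNFSF4 was called in shARF vs Ctrl without shARF replicate 3 (adjusted p = 0.0378) or with all 12 libraries in 1 fit or with a filter at a mean of 1 TPM or with median-of-ratios scaling or with a pseudocount of 1 (adjusted p = 0.0246 to 0.0449). TNFSF14, which binds TNFRSF14 and LTBR, had a mean under 1 TPM, at 0.234 ± 0.0782 TPM in Ctrl and 1.41 ± 0.219 in MLN, and at 0.0443 ± 0.0767 in shARF and 0.188 ± 0.0864 in Both. It rose with MLN4924 in PC3 cells (log2 2.19 ± 0.25, adjusted p = 0.000499) and was lower in Both than in MLN (log2 −2.42 ± 0.27, adjusted p = 0.00225), and the change in PC3-shp14ARF cells was log2 1.08 ± 0.43, adjusted p = 0.0738. TNFSF14 was called in Both vs shARF without shARF replicate 5 (adjusted p = 0.0133) or with all 12 libraries in 1 fit (adjusted p = 0.0309). TNFSF14 gained a called interaction with a pseudocount of 1 (adjusted p = 0.00201). TNFSF14 was called in shARF vs Ctrl without shARF replicate 5 (adjusted p = 0.0099) or with all 12 libraries in 1 fit or with median-of-ratios scaling or with a pseudocount of 1 (adjusted p = 0.0186 to 0.0493).

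Of the ligands that signal through death-domain receptors, TNF and TNFSF15 moved by the most on the log2 scale when p14ARF was depleted with DMSO. TNF was at 2.14, 2.50 and 1.72 TPM in Ctrl and at 9.16, 9.42 and 10.3 in MLN, and at 0.0939, 0 and 0.0947 in shARF and at 0.357, 0.816 and 0.349 in Both. TNF was highest in every library of MLN, intermediate in Ctrl, and under 1 TPM in every library of PC3-shp14ARF cells. MLN4924 raised it by log2 2.14 ± 0.15 in PC3 cells (adjusted p = 7.12e-05) and log2 1.88 ± 0.42 in PC3-shp14ARF cells (adjusted p = 0.0097). The interaction was not called on this scale (log2 −0.26 ± 0.46, adjusted p = 0.716), but with a pseudocount of 1 TPM, which gives less weight to the low values of PC3-shp14ARF cells, the interaction was called (−1.28, adjusted p = 0.0003). Depletion lowered TNF (log2 −3.82 ± 0.33 with DMSO, adjusted p = 0.000843, and log2 −4.08 ± 0.30 with MLN4924, adjusted p = 0.000669), and each library of Both was below each library of Ctrl. TNF was no longer called in Both vs shARF with no filter on low values (adjusted p = 0.0897).

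TNFSF15 was at 21.4, 18.4 and 18.5 TPM in Ctrl and at 2.66, 3.56 and 2.54 in MLN, and at 0.579, 0.611 and 0.644 in shARF and at 1.96, 2.18 and 1.72 in Both. TNFSF15, the ligand of TNFRSF25, was highest in Ctrl and lowest in shARF, and the 4 groups did not overlap. Its response to MLN4924 was log2 −2.71 ± 0.15 in PC3 cells (adjusted p = 3.04e-05) and log2 1.52 ± 0.15 in PC3-shp14ARF cells (adjusted p = 0.00032): the level fell in PC3 and rose in PC3-shp14ARF cells, and the interaction was the largest positive one among members above 0 in every group (log2 4.23 ± 0.21, adjusted p = 1.04e-07). Depletion changed it by log2 −4.78 ± 0.10 with DMSO (adjusted p = 1.94e-05) and log2 −0.55 ± 0.18 with MLN4924 (adjusted p = 0.0599), of which only the first was called. TNFSF15 was called in Both vs MLN with all 12 libraries in 1 fit or with a filter at a mean of 1 TPM (adjusted p = 0.0112 to 0.0323).

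TNFSF10 was at 3.46, 3.40 and 3.54 TPM in Ctrl and at 3.23, 2.47 and 1.91 in MLN, and at 3.72, 5.24 and 4.84 in shARF and at 0.992, 1.44 and 0.757 in Both. TNFSF10 (TRAIL), the ligand of TNFRSF10A and TNFRSF10B, was lowest in Both, with no overlap with any other group. MLN4924 changed it by log2 −0.47 ± 0.20 in PC3 cells (adjusted p = 0.0823) and log2 −2.04 ± 0.26 in PC3-shp14ARF cells (adjusted p = 0.000834), which was called only in PC3-shp14ARF cells. For TNFSF10 the interaction was called (log2 −1.57 ± 0.33, adjusted p = 0.00366). The depletion changes had opposite signs, log2 0.38 ± 0.14 with DMSO (adjusted p = 0.0895) and log2 −1.19 ± 0.29 with MLN4924 (adjusted p = 0.026), and only the second was called. TNFSF10 was no longer called in Both vs MLN without any 1 of Both replicates 2 and 4 and MLN replicates 1 and 2 (adjusted p = 0.0687 to 0.0847) or with no filter on low values (adjusted p = 0.103). TNFSF10 was called in MLN vs Ctrl without MLN replicate 1 (adjusted p = 0.0183). TNFSF10 was called in shARF vs Ctrl without shARF replicate 1 (adjusted p = 0.0174).

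FASLG, the ligand of FAS, had a mean under 1 TPM, at 0.349 ± 0.0872 TPM in Ctrl and 0.791 ± 0.280 in MLN, and at 0.0555 ± 0.0480 in shARF and 0.185 ± 0.0464 in Both (SD, n = 3). It was higher with MLN4924 (log2 0.95 ± 0.32 in PC3 cells, adjusted p = 0.0427, and log2 0.91 ± 0.32 in PC3-shp14ARF cells, adjusted p = 0.0497) and lower after depletion (log2 −1.56 ± 0.31 with DMSO, adjusted p = 0.0128, and log2 −1.60 ± 0.31 with MLN4924, adjusted p = 0.0127). FASLG was no longer called in Both vs MLN with no filter on low values (adjusted p = 0.194). FASLG was no longer called in Both vs shARF without any 1 of Both replicates 2, 3 and 4 and shARF replicates 1, 3 and 5 (adjusted p = 0.0532 to 0.119) or with no filter on low values or with a pseudocount of 0.01 or with a pseudocount of 1 (adjusted p = 0.0713 to 0.126). FASLG was no longer called in MLN vs Ctrl without any 1 of Ctrl replicates 1, 2 and 3 and MLN replicates 1 and 5 (adjusted p = 0.0724 to 0.117) or with no filter on low values or with a pseudocount of 0.01 (adjusted p = 0.0512 to 0.283). FASLG was no longer called in shARF vs Ctrl with no filter on low values or with a pseudocount of 0.01 (adjusted p = 0.0666 to 0.0844).

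The remaining ligands were TNFSF12, TNFSF13 and TNFSF13B. TNFSF12 was at 37.6, 30.8 and 30.6 TPM in Ctrl and at 10.7, 14.2 and 11.2 in MLN, and at 16.9, 19.4 and 18.4 in shARF and at 6.30, 6.14 and 6.22 in Both. TNFSF12 (TWEAK), the ligand of TNFRSF12A, was lower with MLN4924 and lower after depletion, so that it was lowest in Both, and no 2 groups overlapped. It fell with MLN4924 (log2 −1.46 ± 0.14 in PC3 cells, adjusted p = 0.000227, and log2 −1.54 ± 0.07 in PC3-shp14ARF cells, adjusted p = 1.33e-05) and after depletion (log2 −0.85 ± 0.10 with DMSO, adjusted p = 0.00239, and log2 −0.93 ± 0.12 with MLN4924, adjusted p = 0.00329). For TNFSF12 the interaction was not called (log2 −0.08 ± 0.16, adjusted p = 0.752). TNFSF13 was at 32.7, 26.7 and 30.0 TPM in Ctrl and at 39.7, 46.2 and 52.1 in MLN, and at 12.4, 14.5 and 14.4 in shARF and at 23.8, 25.8 and 26.8 in Both. TNFSF13 (APRIL), a B cell ligand, lies next to TNFSF12 and moved in the opposite direction with the drug: every MLN4924 library was above every DMSO library of the same line. It rose by log2 0.62 ± 0.12 in PC3 cells (adjusted p = 0.00518) and log2 0.88 ± 0.08 in PC3-shp14ARF cells (adjusted p = 0.000215), and depletion lowered it (log2 −1.11 ± 0.10 with DMSO, adjusted p = 0.000996, and log2 −0.84 ± 0.11 with MLN4924, adjusted p = 0.00337). 

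TNFSF12 lies on chromosome 17 from 7548508 to 7557890 on the plus strand and TNFSF13 on chromosome 17 from 7558292 to 7561608 on the plus strand (GRCh38). The read-through gene TNFSF12-TNFSF13 covers most of both, and the sources used here do not say how its reads were divided from theirs, so the levels of all 3 are uncertain to that extent. TNFSF12-TNFSF13 was at 0, 1.57 and 0 TPM in Ctrl and at 3.41, 1.82 and 0 in MLN, and at 3.73, 1.80 and 3.58 in shARF and at 0, 0 and 0.322 in Both. The read-through gene was at 0 in 5 libraries, and these lay in Ctrl, MLN and Both. Only Both vs shARF was called among the pairwise comparisons (log2 −4.21 ± 0.65, adjusted p = 0.00201), and the interaction was log2 −5.99 ± 1.85, adjusted p = 0.0297. TNFSF12-TNFSF13 was called in Both vs MLN without MLN replicate 5 (adjusted p = 0.0285). TNFSF12-TNFSF13 lost the call of its interaction without any 1 of Both replicates 2 and 3, Ctrl replicates 1 and 3, MLN replicates 1 and 2 and shARF replicates 1 and 5 (adjusted p = 0.0632 to 0.0739) or with no filter on low values or with a pseudocount of 0.01 (adjusted p = 0.0625 to 0.152). TNFSF12-TNFSF13 was called in shARF vs Ctrl without Ctrl replicate 2 (adjusted p = 0.00299) or with all 12 libraries in 1 fit or with a filter at a mean of 1 TPM or with a pseudocount of 1 (adjusted p = 0.0286 to 0.0459). TNFSF13B was at 1.02, 0.831 and 0.745 TPM in Ctrl and at 2.75, 1.77 and 1.87 in MLN, and at 0.926, 1.02 and 1.14 in shARF and at 0.783, 1.14 and 0.716 in Both. TNFSF13B (BAFF), another B cell ligand, was higher in every library of MLN than in any other library. By call it rose only in PC3 cells (log2 1.19 ± 0.22 in PC3 cells, adjusted p = 0.0044, and log2 −0.22 ± 0.22 in PC3-shp14ARF cells, adjusted p = 0.406), with a called interaction (log2 −1.41 ± 0.32, adjusted p = 0.00655), and the depletion changes were log2 0.23 ± 0.16 with DMSO (adjusted p = 0.326) and log2 −1.18 ± 0.25 with MLN4924 (adjusted p = 0.0168). TNFSF13B was no longer called in Both vs MLN without any 1 of Both replicates 2 and 4 (adjusted p = 0.0528 to 0.0627) or with no filter on low values (adjusted p = 0.0688).

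**Figure D2:**
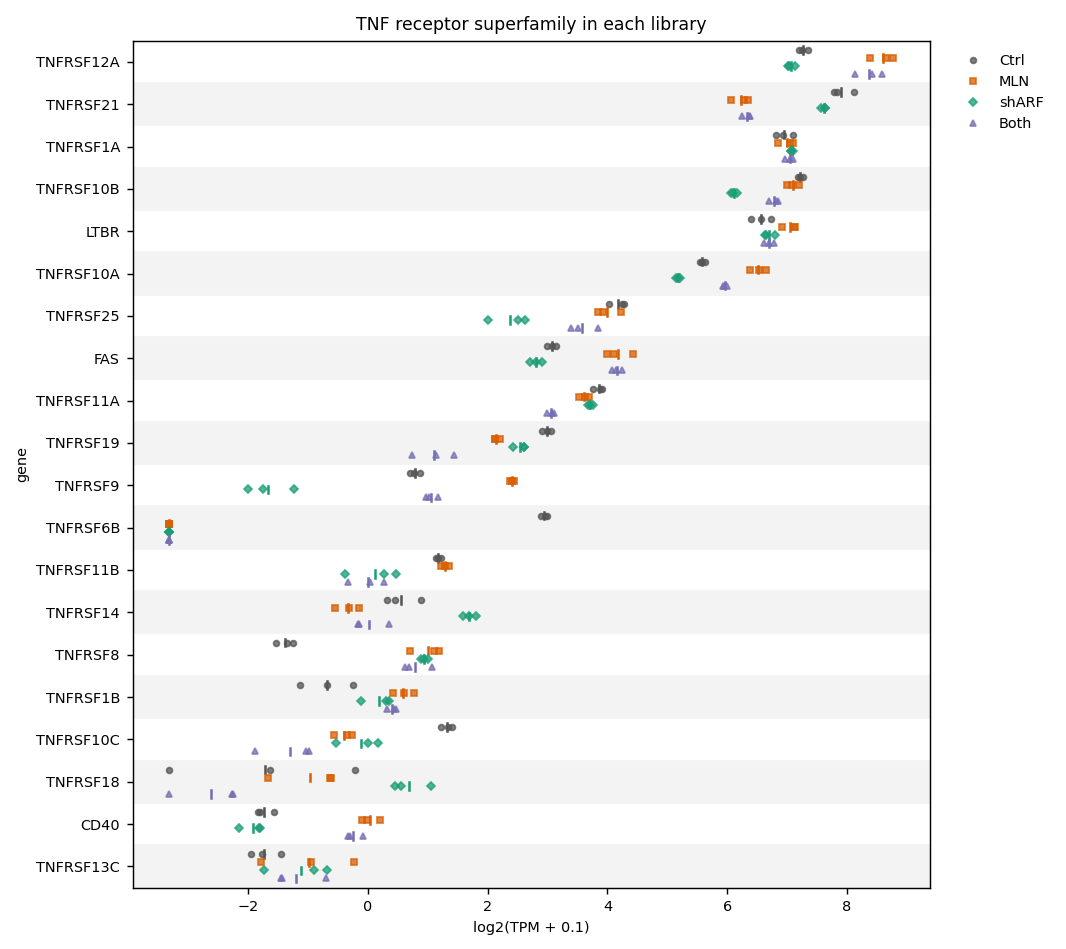
Level of each of the 20 tested receptors in every library, as log2(TPM + 0.1) on the x axis, with the genes on the y axis. Points are libraries (n = 3 in each of Ctrl, MLN, shARF and Both), short vertical bars are group means, and a gene at 0 TPM lies at the left edge. TNFRSF12A and TNFRSF21 change places between the DMSO and MLN4924 libraries, the 4 means of TNFRSF1A lie close together, and TNFRSF6B is above 0 only in Ctrl.

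Receptors with a death domain differed among themselves. TNFRSF21 was at 277, 227 and 219 TPM in Ctrl and at 66.9, 77.4 and 81.2 in MLN, and at 198, 189 and 198 in shARF and at 83.1, 82.6 and 75.5 in Both. TNFRSF21 (death receptor 6) was the most abundant receptor in Ctrl and fell with MLN4924 in both lines, with no overlap. Its change was log2 −1.68 ± 0.11 in PC3 cells (adjusted p = 6.66e-05) and log2 −1.28 ± 0.05 in PC3-shp14ARF cells (adjusted p = 9.48e-06), and the fall was smaller in PC3-shp14ARF cells (interaction log2 0.40 ± 0.13, adjusted p = 0.0371). The depletion changes were not called (log2 −0.30 ± 0.10 with DMSO, adjusted p = 0.0573, and log2 0.10 ± 0.09 with MLN4924, adjusted p = 0.421). TNFRSF21 lost the call of its interaction without any 1 of Both replicates 2 and 3, Ctrl replicate 1, MLN replicates 1 and 2 and shARF replicates 1, 3 and 5 (adjusted p = 0.0534 to 0.0804) or with no filter on low values (adjusted p = 0.132). TNFRSF21 was called in shARF vs Ctrl without Ctrl replicate 1 (adjusted p = 0.0152) or with all 12 libraries in 1 fit or with a filter at a mean of 1 TPM or with median-of-ratios scaling (adjusted p = 0.0198 to 0.0281). TNFRSF1A, the main receptor of TNF, was at 123 ± 11.8 TPM in Ctrl and 128 ± 11.5 in MLN, and at 135 ± 2.07 in shARF and 132 ± 5.78 in Both (SD, n = 3). TNFRSF1A was called in none of the 4 pairwise comparisons, with changes from log2 −0.04 ± 0.04 in Both vs shARF to log2 0.13 ± 0.07 in shARF vs Ctrl. TNFRSF1A was called in shARF vs Ctrl without Ctrl replicate 1 (adjusted p = 0.0225).

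The signalling receptors of TRAIL were lower after depletion. TNFRSF10B was at 154, 145 and 148 TPM in Ctrl and at 127, 135 and 147 in MLN, and at 66.6, 71.8 and 68.6 in shARF and at 115, 112 and 103 in Both. TNFRSF10B was lowest in shARF, next in Both, and overlapped between Ctrl and MLN. The response to MLN4924 was log2 −0.13 ± 0.06 in PC3 cells (adjusted p = 0.13) and log2 0.67 ± 0.05 in PC3-shp14ARF cells (adjusted p = 0.000122), called only in PC3-shp14ARF cells. For TNFRSF10B the interaction was called (log2 0.80 ± 0.09, adjusted p = 5.25e-05). Depletion lowered TNFRSF10B (log2 −1.11 ± 0.04 with DMSO, adjusted p = 7.02e-05, and log2 −0.31 ± 0.07 with MLN4924, adjusted p = 0.0226). TNFRSF10B was no longer called in Both vs MLN without any 1 of Both replicates 2, 3 and 4 and MLN replicates 2 and 5 (adjusted p = 0.0537 to 0.0732) or with no filter on low values (adjusted p = 0.0769). TNFRSF10B was called in MLN vs Ctrl without MLN replicate 5 (adjusted p = 0.0333). TNFRSF10A was at 48.0 ± 1.24 TPM in Ctrl and 92.0 ± 8.63 in MLN, and at 36.1 ± 0.886 in shARF and 61.9 ± 1.38 in Both (SD, n = 3). It rose with MLN4924 by log2 0.93 ± 0.07 in PC3 cells (adjusted p = 0.00012) and log2 0.78 ± 0.04 in PC3-shp14ARF cells (adjusted p = 1.79e-05) and fell after depletion (log2 −0.41 ± 0.03 with DMSO, adjusted p = 0.000605, and log2 −0.57 ± 0.08 with MLN4924, adjusted p = 0.00374), in no comparison beyond 2-fold. For TNFRSF10A the interaction was not called (log2 −0.16 ± 0.09, adjusted p = 0.216). TNFRSF10A gained a called interaction without MLN replicate 1 (adjusted p = 0.0375).

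FAS was at 8.71, 8.30 and 7.89 TPM in Ctrl and at 21.4, 17.3 and 15.8 in MLN, and at 7.44, 6.39 and 6.90 in shARF and at 16.8, 18.9 and 17.6 in Both. FAS, the receptor of FASLG, was higher in every MLN4924 library than in any DMSO library. It rose by log2 1.11 ± 0.12 in PC3 cells (adjusted p = 0.000437) and log2 1.35 ± 0.08 in PC3-shp14ARF cells (adjusted p = 3.78e-05). For FAS the interaction was not called (log2 0.24 ± 0.15, adjusted p = 0.26). Depletion changed it by log2 −0.26 ± 0.08 with DMSO (adjusted p = 0.0449) and log2 −0.02 ± 0.12 with MLN4924 (adjusted p = 0.93). FAS gained a called interaction without MLN replicate 1 (adjusted p = 0.0427). FAS was no longer called in shARF vs Ctrl without any 1 of Ctrl replicates 1, 2 and 3 and shARF replicates 3 and 5 (adjusted p = 0.0705 to 0.111) or with all 12 libraries in 1 fit or with no filter on low values (adjusted p = 0.0675 to 0.0886). In the annotation FAS overlaps STAMBPL1 on its own strand and ACTA2 on the other, and the sources used here do not say whether counting used strand. Other members overlap genes as well, among them TNFRSF25 (ESPN), TNFRSF12A (CLDN6), LTBR (SCNN1A) and TNFRSF10B (RHOBTB2), each on the other strand. TNFRSF25 was at 18.8, 16.2 and 19.3 TPM in Ctrl and at 18.7, 15.0 and 14.3 in MLN, and at 5.58, 3.93 and 6.08 in shARF and at 11.3, 10.4 and 14.2 in Both. TNFRSF25 (death receptor 3) was lowest in shARF, where no library reached any library of another group. MLN4924 changed it by log2 −0.18 ± 0.12 in PC3 cells (adjusted p = 0.245) and log2 1.20 ± 0.20 in PC3-shp14ARF cells (adjusted p = 0.00266), called only in PC3-shp14ARF cells. For TNFRSF25 the interaction was called (log2 1.38 ± 0.24, adjusted p = 0.00106). Depletion changed it by log2 −1.80 ± 0.18 with DMSO (adjusted p = 0.00145) and log2 −0.42 ± 0.15 with MLN4924 (adjusted p = 0.0841), of which only the first was called. TNFRSF25 was called in Both vs MLN without Both replicate 4 (adjusted p = 0.0459) or with a filter at a mean of 1 TPM (adjusted p = 0.0329).

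The 3 tested decoy receptors were all called lower in shARF than in Ctrl, as were 20.4% of all genes. The values of TNFRSF6B and the call of TNFRSF11B have limits that are given below. TNFRSF6B was at 7.65, 7.32 and 7.84 TPM in Ctrl and at 0 in every library of MLN, and at 0 in every library of shARF and at 0 in every library of Both. TNFRSF6B (decoy receptor 3), which binds FASLG, TNFSF14 and TNFSF15, was thus listed at 0 in 9 libraries and between 7.32 and 7.84 TPM in Ctrl, and no fold change is given against a group at 0. It counts among the members lower in MLN vs Ctrl and in shARF vs Ctrl and among the called interactions. TNFRSF6B lies on chromosome 20 from 63696652 to 63698684 on the plus strand inside the read-through gene RTEL1-TNFRSF6B, which was between 1.75 and 3.33 TPM over all libraries, and a value of exactly 0 can come from the way reads were divided between the 2 genes, which was not tested. TNFRSF10C was at 2.56, 2.22 and 2.43 TPM in Ctrl and at 0.731, 0.687 and 0.574 in MLN, and at 0.899, 0.592 and 1.03 in shARF and at 0.171, 0.405 and 0.389 in Both. TNFRSF10C, a decoy for TRAIL, was highest in Ctrl and lowest in Both. It fell with MLN4924 (log2 −1.72 ± 0.16 in PC3 cells, adjusted p = 0.000205, and log2 −1.18 ± 0.34 in PC3-shp14ARF cells, adjusted p = 0.0241), and the depletion changes were log2 −1.44 ± 0.22 with DMSO (adjusted p = 0.00507) and log2 −0.91 ± 0.30 with MLN4924 (adjusted p = 0.0661). TNFRSF10C was called in Both vs MLN with all 12 libraries in 1 fit or with a pseudocount of 1 (adjusted p = 0.0207 to 0.0426). TNFRSF10C was no longer called in Both vs shARF without any 1 of shARF replicates 1 and 5 (adjusted p = 0.0755 to 0.0779) or with no filter on low values (adjusted p = 0.178). TNFRSF10C gained a called interaction with a pseudocount of 1 (adjusted p = 0.0202).

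TNFRSF11B was at 2.16, 2.22 and 2.10 TPM in Ctrl and at 2.45, 2.23 and 2.35 in MLN, and at 0.668, 1.10 and 1.29 in shARF and at 1.11, 0.698 and 0.930 in Both. TNFRSF11B (osteoprotegerin), a secreted decoy for TNFSF11 and TRAIL, was at least 2.10 TPM in every library of PC3 cells and at most 1.29 in every library of PC3-shp14ARF cells. Depletion lowered it (log2 −1.06 ± 0.25 with DMSO, adjusted p = 0.0223, and log2 −1.29 ± 0.19 with MLN4924, adjusted p = 0.00523), and MLN4924 gave no call (log2 0.11 ± 0.11 in PC3 cells, adjusted p = 0.409, and log2 −0.12 ± 0.29 in PC3-shp14ARF cells, adjusted p = 0.746). TNFRSF11B was no longer called in shARF vs Ctrl without any 1 of Ctrl replicates 1, 2 and 3 and shARF replicate 3 (adjusted p = 0.0536 to 0.0688) or with no filter on low values (adjusted p = 0.0627). The fourth decoy, TNFRSF10D, was at most 0.170 TPM and was not tested.

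Receptors without a death domain included TNFRSF12A, which had the highest level of all receptors with MLN4924. TNFRSF12A was at 163, 147 and 152 TPM in Ctrl and at 336, 403 and 438 in MLN, and at 130.5, 129.8 and 141 in shARF and at 381, 279.7 and 341 in Both. TNFRSF12A, the receptor of TNFSF12, was at 279.7 TPM or more in every MLN4924 library and at 163 or less in every DMSO library. It rose by log2 1.34 ± 0.11 in PC3 cells (adjusted p = 0.000118) and log2 1.31 ± 0.12 in PC3-shp14ARF cells (adjusted p = 0.000189), with no called interaction (log2 −0.03 ± 0.16, adjusted p = 0.911), while its ligand TNFSF12 fell in the same comparisons. The depletion changes were log2 −0.20 ± 0.05 with DMSO (adjusted p = 0.0351) and log2 −0.23 ± 0.15 with MLN4924 (adjusted p = 0.283). TNFRSF12A was no longer called in shARF vs Ctrl without any 1 of Ctrl replicates 1 and 3 and shARF replicates 1 and 3 (adjusted p = 0.063 to 0.109) or with all 12 libraries in 1 fit or with no filter on low values (adjusted p = 0.0992 to 0.181). TNFRSF9 was at 1.73, 1.54 and 1.61 TPM in Ctrl and at 5.08, 5.20 and 5.31 in MLN, and at 0.323, 0.196 and 0.150 in shARF and at 1.87, 2.16 and 1.94 in Both. TNFRSF9, the receptor of TNFSF9, was ordered over the groups as its ligand, from shARF through Ctrl and Both to MLN, and no 2 groups overlapped. MLN4924 raised it by log2 1.62 ± 0.10 in PC3 cells (adjusted p = 4.93e-05) and log2 2.72 ± 0.24 in PC3-shp14ARF cells (adjusted p = 0.000184), and depletion lowered it (log2 −2.45 ± 0.23 with DMSO, adjusted p = 0.00107, and log2 −1.35 ± 0.10 with MLN4924, adjusted p = 0.000768). The interaction was called (log2 1.10 ± 0.27, adjusted p = 0.00916), but with a pseudocount of 1 TPM it was 0.05 (adjusted p = 0.801).

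TNFRSF19 was at 8.25, 7.81 and 7.40 TPM in Ctrl and at 4.24, 4.50 and 4.25 in MLN, and at 5.26, 6.02 and 5.96 in shARF and at 2.11, 2.61 and 1.57 in Both. TNFRSF19 fell with MLN4924 and after depletion, and was lowest in Both, with no overlap between any 2 groups. The changes were log2 −0.84 ± 0.08 in PC3 cells (adjusted p = 0.000256) and log2 −1.44 ± 0.19 in PC3-shp14ARF cells (adjusted p = 0.00109) with the drug, and log2 −0.44 ± 0.08 with DMSO (adjusted p = 0.00969) and log2 −1.04 ± 0.19 with MLN4924 (adjusted p = 0.0106) with depletion. The interaction was log2 −0.60 ± 0.21, adjusted p = 0.0536. TNFRSF19 gained a called interaction without Both replicate 3 (adjusted p = 0.00911) or with a filter at a mean of 1 TPM (adjusted p = 0.0366). TNFRSF14 was at 1.76, 1.27 and 1.15 TPM in Ctrl and at 0.807, 0.580 and 0.703 in MLN, and at 3.14, 2.90 and 3.39 in shARF and at 0.795, 0.806 and 1.17 in Both. TNFRSF14 (HVEM), a receptor of TNFSF14, was highest in shARF and below that in all other libraries. By call it rose with depletion only with DMSO (log2 1.14 ± 0.18 with DMSO, adjusted p = 0.00647, and log2 0.35 ± 0.22 with MLN4924, adjusted p = 0.28) and fell with MLN4924 (log2 −0.90 ± 0.22 in PC3 cells, adjusted p = 0.0137, and log2 −1.68 ± 0.18 in PC3-shp14ARF cells, adjusted p = 0.00047). TNFRSF14 was no longer called in MLN vs Ctrl with no filter on low values (adjusted p = 0.0557). TNFRSF14 gained a called interaction without any 1 of Both replicate 4 and Ctrl replicate 1 (adjusted p = 0.0328 to 0.0334) or with a pseudocount of 1 (adjusted p = 0.0151).

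TNFRSF8 was at 0.293, 0.320 and 0.244 TPM in Ctrl and at 2.17, 2.05 and 1.53 in MLN, and at 1.81, 1.91 and 1.74 in shARF and at 1.44, 1.50 and 1.99 in Both. TNFRSF8 (CD30) was at most 0.320 TPM in Ctrl and at least 1.44 TPM in every other library. It rose with MLN4924 alone (log2 2.38 ± 0.21, adjusted p = 0.000165) and with depletion alone (log2 2.32 ± 0.13, adjusted p = 0.000264), and Both vs MLN was not called (log2 −0.21 ± 0.20, adjusted p = 0.472). The interaction was log2 −2.53 ± 0.27, adjusted p = 4.33e-05. TNFRSF1B was at 0.747, 0.357 and 0.524 TPM in Ctrl and at 1.41, 1.60 and 1.24 in MLN, and at 1.13, 0.825 and 1.18 in shARF and at 1.15, 1.25 and 1.28 in Both. TNFRSF1B, the second receptor of TNF, was lowest in Ctrl. It rose with MLN4924 in PC3 cells (log2 1.28 ± 0.27 in PC3 cells, adjusted p = 0.00692, and log2 0.23 ± 0.18 in PC3-shp14ARF cells, adjusted p = 0.321), and the depletion changes, log2 0.86 ± 0.28 with DMSO (adjusted p = 0.0606) and log2 −0.19 ± 0.15 with MLN4924 (adjusted p = 0.408), were not called. The interaction was log2 −1.05 ± 0.34, adjusted p = 0.0366. TNFRSF1B lost the call of its interaction without any 1 of Both replicates 2, 3 and 4, Ctrl replicates 2 and 3, MLN replicates 1 and 2 and shARF replicates 1 and 5 (adjusted p = 0.0545 to 0.0835) or with no filter on low values (adjusted p = 0.0821). TNFRSF1B was called in shARF vs Ctrl without Ctrl replicate 1 (adjusted p = 0.0338) or with all 12 libraries in 1 fit or with a filter at a mean of 1 TPM or with median-of-ratios scaling or with a pseudocount of 1 (adjusted p = 0.0119 to 0.0477).

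The other receptors had a lower level or smaller changes. LTBR, the receptor of lymphotoxin and TNFSF14, was at 94.8 ± 11.3 TPM in Ctrl and 133 ± 11.0 in MLN, and at 103 ± 6.40 in shARF and 104 ± 5.94 in Both (SD, n = 3). By call LTBR rose with MLN4924 only in PC3 cells (log2 0.49 ± 0.11 in PC3 cells, adjusted p = 0.00784, and log2 0.00 ± 0.06 in PC3-shp14ARF cells, adjusted p = 0.991), with an interaction of log2 −0.49 ± 0.13, adjusted p = 0.0136. It was lower in Both than in MLN (log2 −0.35 ± 0.08, adjusted p = 0.02). LTBR was no longer called in Both vs MLN without any 1 of Both replicates 2 and 3 and MLN replicates 2 and 5 (adjusted p = 0.0643 to 0.0746) or with median-of-ratios scaling or with no filter on low values (adjusted p = 0.0506 to 0.0744). LTBR lost the call of its interaction with no filter on low values (adjusted p = 0.0606). TNFRSF11A (RANK) was at 14.4 ± 0.798 TPM in Ctrl and 12.2 ± 0.752 in MLN, and at 13.0 ± 0.394 in shARF and 8.24 ± 0.357 in Both. TNFRSF11A fell with MLN4924 (log2 −0.24 ± 0.07 in PC3 cells, adjusted p = 0.0323, and log2 −0.66 ± 0.06 in PC3-shp14ARF cells, adjusted p = 0.000197), more in PC3-shp14ARF cells (interaction log2 −0.42 ± 0.10, adjusted p = 0.00977). It was also lower in Both than in MLN (log2 −0.55 ± 0.08, adjusted p = 0.00405). TNFRSF11A was no longer called in MLN vs Ctrl without any 1 of Ctrl replicates 1 and 3 and MLN replicates 1 and 5 (adjusted p = 0.0677 to 0.0952) or with no filter on low values (adjusted p = 0.0664). TNFRSF11A was called in shARF vs Ctrl without Ctrl replicate 2 (adjusted p = 0.039) or with median-of-ratios scaling (adjusted p = 0.0343).

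CD40, a receptor of antigen-presenting cells, was at 0.201 ± 0.0312 TPM in Ctrl and 0.926 ± 0.112 in MLN, and at 0.166 ± 0.0347 in shARF and 0.749 ± 0.0808 in Both. CD40 rose by log2 1.77 ± 0.20 in PC3 cells (adjusted p = 0.000499) and log2 1.68 ± 0.20 in PC3-shp14ARF cells (adjusted p = 0.00064). CD40 was no longer called in Both vs shARF with no filter on low values (adjusted p = 0.0646). TNFRSF18 (GITR), the receptor of TNFSF18, was at 0.329 ± 0.393 TPM in Ctrl and 0.438 ± 0.193 in MLN, and at 1.53 ± 0.382 in shARF and 0.0720 ± 0.0623 in Both (SD, n = 3). It was thus highest in shARF, though shARF vs Ctrl was not called in limma (adjusted p = 0.0681). Its ligand was lowest in shARF, but at under 1 TPM with DMSO in either line. TNFRSF18 fell with MLN4924 in PC3-shp14ARF cells (log2 −3.30 ± 0.37, adjusted p = 0.00049), with an interaction of log2 −4.05 ± 0.92, adjusted p = 0.00606. It was also lower in Both than in MLN (log2 −1.65 ± 0.45, adjusted p = 0.0369). TNFRSF18 was no longer called in Both vs MLN without any 1 of Both replicates 2, 3 and 4 and MLN replicates 2 and 5 (adjusted p = 0.0633 to 0.113) or with all 12 libraries in 1 fit or with no filter on low values or with a pseudocount of 0.01 (adjusted p = 0.0623 to 0.19). TNFRSF18 was called in shARF vs Ctrl without Ctrl replicate 2 (adjusted p = 0.0214) or with all 12 libraries in 1 fit or with a pseudocount of 1 (adjusted p = 0.0101 to 0.0241). TNFRSF13C, the BAFF receptor, was at 0.206 ± 0.0547 TPM in Ctrl and 0.453 ± 0.280 in MLN, and at 0.385 ± 0.167 in shARF and 0.351 ± 0.145 in Both. TNFRSF13C was called in none of the pairwise comparisons. TNFRSF13C was called in MLN vs Ctrl without MLN replicate 2 (adjusted p = 0.0349). TNFRSF13C was called in shARF vs Ctrl without shARF replicate 1 (adjusted p = 0.0355).

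**Figure D3:**
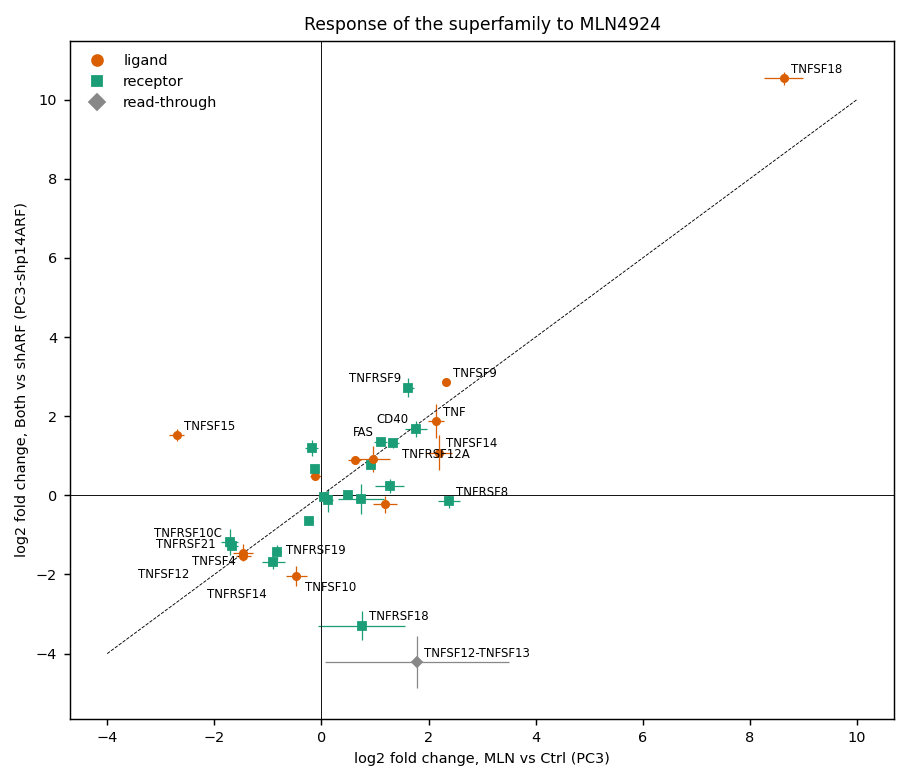
Response to MLN4924 of 32 members in PC3 cells (MLN vs Ctrl, x axis) and in PC3-shp14ARF cells (Both vs shARF, y axis), as log2 fold change with its standard error (bars). Circles are ligands, squares receptors and the diamond the read-through gene; the dashed line marks equal responses, and TNFRSF6B, at 0 in 3 groups, is left out. TNFSF18 lies far above the others, and TNFSF15 is the member with a called fall in PC3 and a called rise in PC3-shp14ARF cells.

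The test of the difference between the 2 responses called 17 members, 9 with a higher and 8 with a lower response in PC3-shp14ARF cells, against 11.2% and 17.1% of all genes. Beyond 2-fold, 5 were higher and 6 lower, against 3.52% and 4.95%. After scaling by median-of-ratios factors 9 members were again higher and 8 lower, against 3216 and 2790 of all 19932 genes. In 5 of the 17 members the drug acted in the same direction, with a call in each line: TNFSF18, TNFSF9 and TNFRSF9 rose more in PC3-shp14ARF cells, TNFRSF21 fell less and TNFRSF11A fell more. With a pseudocount of 1 TPM the interaction of TNFRSF9 was 0.05 and no longer called (adjusted p = 0.801). CD70, TNFRSF10B and TNFRSF25 rose only in PC3-shp14ARF cells by call, and LTBR, TNFRSF1B, TNFRSF8 and TNFSF13B rose only in PC3 cells by call. TNFSF10, TNFRSF18 and the read-through gene fell only in PC3-shp14ARF cells by call.

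**Figure D4:**
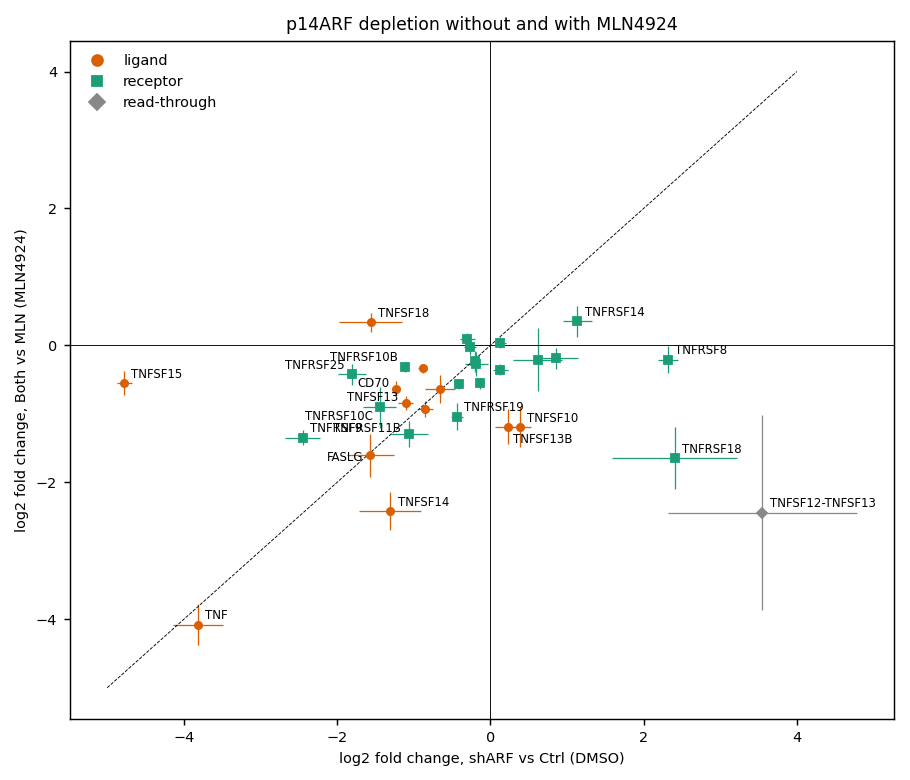
Difference between PC3-shp14ARF and PC3 cells in 32 members with DMSO (shARF vs Ctrl, x axis) and with MLN4924 (Both vs MLN, y axis). Values are log2 fold changes with standard errors (bars). Circles are ligands, squares receptors and the diamond the read-through gene. The dashed line marks equal differences, and TNFRSF6B is left out. TNF lies near the dashed line at about −4 in each comparison, while TNFSF15 lies far to the left and close to 0 on the y axis.

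Summed over the 16 ligands, the level in PC3 cells was 571 ± 28.0 TPM (SD, n = 3) in Ctrl and 1112 ± 44.0 in MLN, against 254.5 ± 10.3 in shARF and 913 ± 30.6 in Both, and no 2 groups overlapped. A few genes carried these sums: CD70 made up 68.6% in Ctrl and 65.7% in shARF, while TNFSF9 came first with 39.0% in MLN and 37.6% in Both, and TNFSF18 made up 21.4% and 32.9% there. The 28 receptors summed to 876 ± 67.6 TPM in Ctrl and 1022 ± 93.6 in MLN, and to 713 ± 19.5 in shARF and 870.2 ± 54.6 in Both. TNFRSF21 came first in the DMSO groups, with 27.5% in Ctrl and 27.3% in shARF, and TNFRSF12A in the MLN4924 groups, with 38.3% in MLN and 38.4% in Both. For the abundant ligands CD70 and TNFSF18 the receptors were low or at 0 in these cells, since CD27 was at 0 throughout and TNFRSF18 never passed 1.97 TPM.

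Several ligands are neighbors in the genome, and neighbors did not share one pattern. TNFSF18 lies on chromosome 1 from 173039202 to 173050941 on the minus strand, 133 kb from TNFSF4 and 372 kb from FASLG. With MLN4924 TNFSF18 rose while TNFSF4 fell. FASLG was also called higher, but its mean was under 1 TPM and these calls were lost without most single libraries, as given above. TNFSF9 lies on chromosome 19 from 6531026 to 6535924 on the plus strand, 47.3 kb from CD70, which is 57.1 kb from TNFSF14. TNFSF9 and TNFSF14 rose with MLN4924 in PC3 cells and CD70 was not called. TNF lies on chromosome 6 from 31575565 to 31578336 on the plus strand, between LTA at 1.24 kb and LTB at 2.19 kb, and both of these neighbors averaged below 0.1 TPM over the 12 libraries. TNFSF15 lies on chromosome 9 from 114784652 to 114806039 on the minus strand, 87.3 kb from TNFSF8, which also averaged below 0.1 TPM over the 12 libraries. Its RefSeq start shown above lies within the GENCODE gene.

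Receptor-proximal signalling was followed with a list of 40 genes (TRAF proteins, inhibitors of apoptosis, caspases, kinases and ubiquitin-editing proteins), of which all but RIPK3 were tested. With MLN4924, 16 of 39 (41.0%) were higher and 12 (30.8%) lower in PC3 cells, and 17 (43.6%) higher and 10 (25.6%) lower in PC3-shp14ARF cells. After depletion, 8 (20.5%) were higher and 14 (35.9%) lower with DMSO, and 4 (10.3%) higher and 14 (35.9%) lower with MLN4924. Of all genes, 32.2% were higher and 29.4% lower with MLN4924 in PC3 cells, and 28.3% and 32.8% in PC3-shp14ARF cells. After depletion 21.0% of all genes were higher and 20.4% lower with DMSO, and 11.8% and 20.6% with MLN4924. The median log2 fold change of the signalling genes was 0.14, −0.08, −0.09 and −0.15 in the same order. That of all genes was 0.05, −0.04, 0.00 and −0.08. Without any 1 of MLN replicates 2 and 5 and Both replicates 2 and 3, 2 rather than 4 were higher in Both than in MLN.

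Of the 39 genes, TNFAIP3, TNIP1 and BIRC3 fell most in shARF vs Ctrl. TNFAIP3 (A20), a ubiquitin-editing enzyme that ends TNF signalling, was at 12.4 ± 1.28 TPM in Ctrl and 16.3 ± 0.538 in MLN, and at 1.08 ± 0.136 in shARF and 2.74 ± 0.0435 in Both (SD, n = 3). It fell after depletion (log2 −3.41 ± 0.13 with DMSO, adjusted p = 8.72e-05, and log2 −2.53 ± 0.07 with MLN4924, adjusted p = 0.000165) and rose with MLN4924 by log2 0.39 ± 0.09 in PC3 cells (adjusted p = 0.00816) and log2 1.27 ± 0.14 in PC3-shp14ARF cells (adjusted p = 0.00042). TNIP1, its binding partner, was at 254 ± 26.0 TPM in Ctrl and 58.8 ± 8.82 in MLN, and at 46.5 ± 1.82 in shARF and 30.7 ± 0.713 in Both. TNIP1 was lower in every treated group: depletion gave log2 −2.45 ± 0.08 with DMSO (adjusted p = 6.4e-05) and log2 −0.93 ± 0.11 with MLN4924 (adjusted p = 0.00298) and MLN4924 gave log2 −2.12 ± 0.13 in PC3 cells (adjusted p = 4.67e-05) and log2 −0.60 ± 0.04 in PC3-shp14ARF cells (adjusted p = 8.23e-05). BIRC3, an inhibitor of apoptosis that binds TRAF proteins, was at 4.88 ± 0.271 TPM in Ctrl and 3.56 ± 0.0708 in MLN, and at 1.02 ± 0.172 in shARF and 0.920 ± 0.0612 in Both. BIRC3 fell after depletion (log2 −2.16 ± 0.14 with DMSO, adjusted p = 0.000392, and log2 −1.85 ± 0.12 with MLN4924, adjusted p = 0.000532). CASP10, an initiator caspase of death receptors, was at 13.5 ± 1.10 TPM in Ctrl and 13.5 ± 1.05 in MLN, and at 5.36 ± 0.337 in shARF and 8.68 ± 0.856 in Both. CASP10 was lower after depletion (log2 −1.31 ± 0.08 with DMSO, adjusted p = 0.000368, and log2 −0.63 ± 0.10 with MLN4924, adjusted p = 0.00659).

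Other genes of the list moved with MLN4924. MAP3K14 (NIK), the kinase of the alternative NF-kappaB pathway, was at 4.31 ± 0.333 TPM in Ctrl and 18.8 ± 2.88 in MLN, and at 7.23 ± 0.523 in shARF and 16.6 ± 1.23 in Both. MAP3K14 rose by log2 2.09 ± 0.13 in PC3 cells (adjusted p = 4.52e-05) and log2 1.19 ± 0.08 in PC3-shp14ARF cells (adjusted p = 7.78e-05). CFLAR (FLIP), which holds back caspase-8, was at 10.7 ± 0.364 TPM in Ctrl and 29.6 ± 0.116 in MLN, and at 10.0 ± 0.122 in shARF and 27.2 ± 0.913 in Both. CFLAR rose by log2 1.47 ± 0.05 in PC3 cells (adjusted p = 7.33e-06) and log2 1.43 ± 0.05 in PC3-shp14ARF cells (adjusted p = 4.77e-06), with no called effect of depletion. ADAM17, the protease that releases TNF, was at 30.2 ± 0.274 TPM in Ctrl and 58.8 ± 0.220 in MLN, and at 25.5 ± 0.472 in shARF and 82.7 ± 6.76 in Both. ADAM17 rose by log2 0.96 ± 0.04 in PC3 cells (adjusted p = 9.82e-06) and log2 1.69 ± 0.06 in PC3-shp14ARF cells (adjusted p = 8.72e-06). IKBKG (NEMO), a subunit of the IKK complex, rose by log2 1.21 ± 0.10 in PC3 cells (adjusted p = 0.000146) and log2 1.04 ± 0.06 in PC3-shp14ARF cells (adjusted p = 2.74e-05). SPATA2, a partner of CYLD, rose by log2 1.16 ± 0.10 in PC3 cells (adjusted p = 0.000199) and log2 0.84 ± 0.05 in PC3-shp14ARF cells (adjusted p = 3.65e-05). TRAF4, an adaptor, rose by log2 1.13 ± 0.12 in PC3 cells (adjusted p = 0.00035) and log2 0.62 ± 0.09 in PC3-shp14ARF cells (adjusted p = 0.00127). MAP3K5 (ASK1), a stress kinase, fell with MLN4924 (log2 −0.81 ± 0.15 in PC3 cells, adjusted p = 0.00428, and log2 −1.61 ± 0.08 in PC3-shp14ARF cells, adjusted p = 2.43e-05) and was higher after depletion (log2 1.12 ± 0.16 with DMSO, adjusted p = 0.00468, and log2 0.32 ± 0.08 with MLN4924, adjusted p = 0.0285). MAP3K5 was no longer called in Both vs MLN without any 1 of Both replicates 2, 3 and 4 and MLN replicates 2 and 5 (adjusted p = 0.0646 to 0.0749) or with all 12 libraries in 1 fit (adjusted p = 0.0646). TAB1, a partner of the kinase TAK1, fell (log2 −0.78 ± 0.12 in PC3 cells, adjusted p = 0.00191, and log2 −1.17 ± 0.05 in PC3-shp14ARF cells, adjusted p = 1.66e-05).

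**Figure D5:**
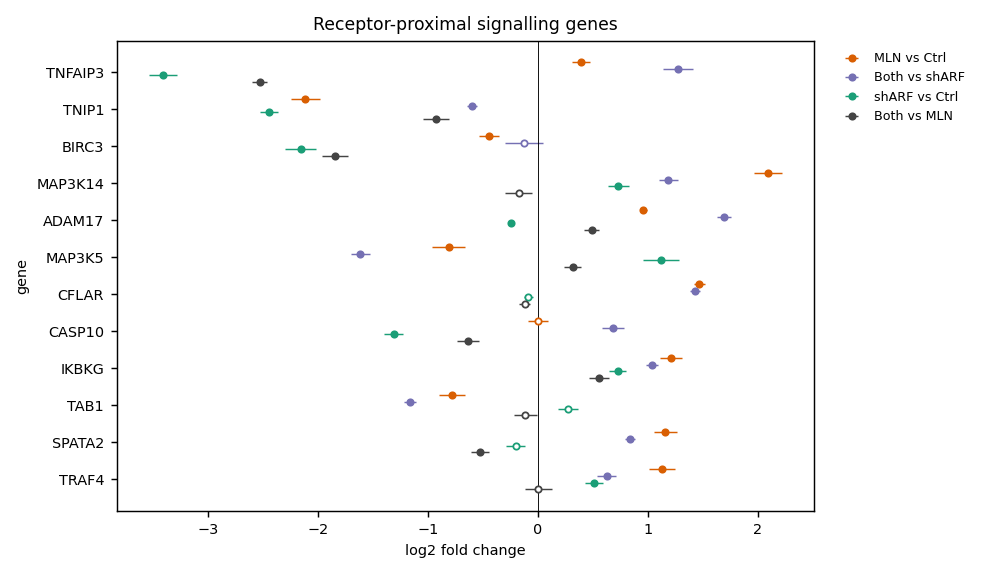
Log2 fold change (x axis, with standard error bars) of the 12 receptor-proximal signalling genes that changed most, in the 4 pairwise comparisons given in the legend. Filled points were called and open points were not. TNFAIP3 and BIRC3 lie far to the left in both comparisons of depletion, and MAP3K14 and CFLAR to the right in both comparisons of MLN4924.

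Of the superfamily genes outside the symbol rule, the receptor RELT was at 6.35 ± 0.525 TPM in Ctrl and 35.7 ± 3.39 in MLN, and at 6.28 ± 0.439 in shARF and 22.7 ± 0.354 in Both (SD, n = 3). RELT rose with MLN4924 by log2 2.47 ± 0.10 in PC3 cells (adjusted p = 1.11e-05) and log2 1.84 ± 0.07 in PC3-shp14ARF cells (adjusted p = 7.01e-06). CD40LG, the ligand of CD40, was at 0 in all libraries, and EDA, the ligand of EDAR, was at most 0.128 TPM.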

How the data were processed

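RNA-seq of 12 libraries, 3 in each of the 4 conditions, was analysed from 1 table of 43622 genes. The authors used CLC Genomics Workbench to trim adapters, to map the reads (hg38) and to quantify genes on an Ensembl GRCh38 annotation. The deposited values are TPM and have the same total in each library, so read depth is unknown. Strandedness is not given in the sources used here. TPM divides by gene length, so levels were compared between genes on that scale only, and a large rise of a few genes lowers the TPM of all others. The study tested read counts, which were not analysed here.

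Libraries were grouped by the condition in their column names, in which "M4" was read as MLN4924 and "sh" as PC3-shp14ARF, and 0 columns of values were left unused. Genes that averaged 0.1 TPM or more over the 12 libraries (19932) were fitted as log2(TPM + 0.1) with limma 3.58.1 in R 4.3.3 (lmFit, eBayes with trend), and p-values were adjusted by Benjamini-Hochberg over all of them. Each pairwise comparison used the 6 libraries of its 2 groups, and the interaction used all 12. On data simulated from these libraries the fit recovered 95.5% of 200 genes changed by log2 2 in MLN vs Ctrl, with 9 calls among unchanged genes, and 93.5% with 12 such calls for the interaction. Both simulations ran on 19932 genes, and the changed genes were drawn from those above 1 TPM in Ctrl. Recovery below that level was not tested, and far fewer genes were changed than were called in these data.

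Members, roles, the 40 signalling genes and the marker lists were chosen with earlier results of these data known. Some markers are not reported here and are left out of the sums. Every tested member is described: values in every library are given for members that averaged 1 TPM or more and are beyond 2-fold in at least 1 pairwise comparison, and for TNF, and group means with SD for the others. Signalling genes named were those beyond 2-fold that averaged 1 TPM or more, at most 12, largest change first. Positions are from GENCODE on hg38, and promoters are from RefSeq (GRCh38.p14), searched on both strands over the 250 bases before the start only, although the window planned ran to 50 bases after it. Libraries of a group were not duplicates (Pearson r over genes on the log2 scale from 0.975 to 0.980, 0 identical pairs). Alternatives were a filter at 1 TPM on average or none, a pseudocount of 1 or 0.01, median-of-ratios scaling, all 12 libraries in 1 fit, a block on the library number, and leaving out each library.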

Additional observations from a re-analysis of the deposited data

Results flagged for a closer look

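The response to MLN4924 differed between PC3-shp14ARF and PC3 cells by the interaction test (limma, adjusted p below 0.05) in 17 members. Values are the log2 response in PC3-shp14ARF cells minus that in PC3 cells, ± standard error.

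Among ligands the difference was log2 4.23 ± 0.21, adjusted p = 1.04e-07 for TNFSF15, log2 1.90 ± 0.41, adjusted p = 0.00463 for TNFSF18, log2 0.60 ± 0.12, adjusted p = 0.00288 for CD70 and log2 0.55 ± 0.09, adjusted p = 0.0011 for TNFSF9. It was negative for TNFSF10 (log2 −1.57 ± 0.33, adjusted p = 0.00366) and TNFSF13B (log2 −1.41 ± 0.32, adjusted p = 0.00655). For the read-through gene TNFSF12-TNFSF13, which was at 0 in 5 libraries, it was log2 −5.99 ± 1.85, adjusted p = 0.0297, and this call was lost without any 1 of 8 libraries. TNFSF18 was under 1 TPM in every DMSO library, so the size of its value depends on the pseudocount.

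Among receptors the difference was log2 1.38 ± 0.24, adjusted p = 0.00106 for TNFRSF25, log2 1.10 ± 0.27, adjusted p = 0.00916 for TNFRSF9, log2 0.80 ± 0.09, adjusted p = 5.25e-05 for TNFRSF10B and log2 0.40 ± 0.13, adjusted p = 0.0371 for TNFRSF21. With a pseudocount of 1 TPM the value of TNFRSF9 was 0.05 (adjusted p = 0.801). The difference was negative for TNFRSF18 (log2 −4.05 ± 0.92, adjusted p = 0.00606), TNFRSF8 (log2 −2.53 ± 0.27, adjusted p = 4.33e-05), TNFRSF1B (log2 −1.05 ± 0.34, adjusted p = 0.0366), LTBR (log2 −0.49 ± 0.13, adjusted p = 0.0136) and TNFRSF11A (log2 −0.42 ± 0.10, adjusted p = 0.00977). The call of TNFRSF21 was lost without any 1 of 8 libraries and that of TNFRSF1B without any 1 of 9. For TNFRSF6B the fitted value was log2 6.27 ± 0.39, adjusted p = 6.75e-07, but MLN, shARF and Both were at 0, so its size is set by the pseudocount and is no measure of a fold.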

How the results depend on the processing

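Of 272 recomputed counts of called members or signalling genes, 251 were within 1.5 times the reported count, and 0 log2 fold changes that were called reversed in sign. In shARF vs Ctrl the number of higher members, 2 as reported, was 5 with a pseudocount of 1, 4 with a filter at a mean of 1 TPM, 5 with all 12 libraries in 1 fit, and 2 to 4 when each library was left out. With no filter, members lower were 10 in Both vs MLN and 5 in the interaction, where more genes at low values were tested. In Both vs MLN the higher signalling genes were 2 to 4 when each library was left out. The calls of all genes in Both vs MLN, 6464, were 3704 with no filter, 4005 without MLN replicate 2 and 4199 without Both replicate 2.

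With a replicate block on the library numbers, higher and lower signalling genes in MLN vs Ctrl were 6 and 3. In shARF vs Ctrl 0 members and 0 signalling genes were called in either direction, as were 0 of all genes by limma, while 7757 of all genes had an unadjusted p below 0.05. In the interaction 5 members were higher and 4 lower under the block, and 2 signalling genes lower. Over all genes the block gave 5708 calls against 12283 in MLN vs Ctrl and 3105 against 5645 in the interaction. The deviations of same-numbered libraries correlated at r = −0.0457 to 0.0222 over 10 pairs, and those of other pairs at −0.0461 to 0.0408, so the numbers were not taken to pair libraries. No paired analysis was possible for Both vs MLN and Both vs shARF because those groups share only 1 number. The block adds a term for each library number and drops no library. In a pairwise comparison only libraries whose number occurs in both groups then inform the difference. These leave few values to estimate the spread.

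Without the block, 19 of 24 called members in MLN vs Ctrl, 15 of 20 in shARF vs Ctrl, 9 of 17 in Both vs MLN, 19 of 24 in Both vs shARF and 11 of 17 in the interaction were tested and called under every alternative. The filter at 1 TPM left 3, 1, 3, 3 and 1 called members untested in the same order. TPM carries no depth, so low members such as FASLG, CD40 and TNFRSF18 have no counting error given here, and 3 libraries per group set the precision.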
